A study of Rattus norvegicus with 18 samples.

Results

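The comparison set the suprachiasmatic nucleus (SCN) at circadian time (CT) 0 and 12, the projected times of lights-on and lights-off, against CT 6 and 18, the middles of the subjective day and of the subjective night. It compared 4 RNA pools (0, 12, 24 and 36 h, the CT 0/12 pools) with the 4 others (6, 18, 30 and 42 h, the CT 6/18 pools), which together are all 8 pools of the time course. A rhythm of 12 h that peaks or dips at CT 0 and 12 separates these sets, while a cosine with a period of 24 h adds as much to one set as to the other and leaves their difference at 0. A 12 h rhythm that peaks midway between the sampled times leaves no difference here and could not be seen with sampling every 6 h. All 8740 probe sets other than the 59 array controls were considered, and the 4370 of them with a mean level above the median probe set, belonging to 2820 named genes, were tested.

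The SCN is the hypothalamic cell group that keeps the main circadian clock of mammals. All animals were adult male Long-Evans rats that had lived in 12 h of light and 12 h of dark, were kept in the dark without interruption after 1 ordinary lights-off (CT 12), and were killed every 6 h from the CT 0 that followed. No genotype, drug or light pulse distinguished the groups, which differed in time and in the number of arrays (10 at CT 0/12 and 8 at CT 6/18). RNA from 5 rats was pooled at each time point, so a pool carries no measure of the spread between animals. The pools were read on 18 rat U34A GeneChips, oligonucleotide arrays of 1 colour. There were 10 arrays in a first run, where 24 h and 36 h each had a pair of arrays, a and b, and 8 in a technical repeat.

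Most clock-controlled transcripts have 1 peak a day, produced by a feedback loop in which the BMAL1 and CLOCK proteins drive the Period and Cryptochrome genes that later repress them. In other tissues, mainly liver, a smaller set of transcripts with 2 peaks a day has been described. Those sets were reported to be rich in genes for the unfolded protein response, protein folding and mitochondria. Whether single transcripts of the SCN differ in this way is the question the comparison answers.

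Intensities of arrays a and b, then of the 2 runs, were averaged on the log2 scale, and differences below are CT 0/12 minus CT 6/18 in log2 units, with the standard error (SE) of a limma fit to 4 pools against 4. A difference of 1 is thus 2-fold, and a peak in the CT 0/12 pools gives a positive value. Adjusted p-values are Benjamini-Hochberg values of limma's moderated test over the 4370 probe sets. The 8 pools can be split into 4 and 4 in 70 ways, so the smallest exact permutation p, two-sided, is 0.0286, and it is reached whenever the sets do not overlap.

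The pools had median intensities from 125 to 138 at CT 0/12 and from 125 to 134 at CT 6/18, with no detected difference (exact permutation test, p = 0.914). None was detected either in the spiked hybridisation controls (-0.16, exact permutation p = 0.543). The same held for the ratio of 3' to 5' signal of GAPDH (-0.27, exact permutation p = 0.371) and that of actin (0.16, exact permutation p = 0.714). These ratios were high, for GAPDH from 12.0 to 25.3 over the CT 0/12 pools and from 20.3 to 25.1 over the CT 6/18 pools. For actin they were 2.99 to 8.71 and 3.70 to 6.49, and 2 first-run arrays reached 17.0 (0 h) and 20.9 (18 h). Among the SCN markers Avp (vasopressin, mean intensity 1732), Sst and Gad1 were readily measured, but Vip, the peptide of the light-receiving SCN neurons, had a mean intensity of 49.0 and lay below the level filter. Lhx1 and Rorb, at 14.9 and 17.5, were close to the floor of 12.1. Oxt (oxytocin), at 3034, and Hcrt (hypocretin), at 485, mark neurons outside the SCN; what share of the dissected tissue lay outside it was not tested.

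No probe set passed an adjusted p of 0.05 in the limma fit (0 of 4370, 0%), and none passed 0.10. The smallest adjusted p was 0.218, for the caveolar protein gene Cavin3. An unadjusted p under 0.05 was found for 281 probe sets, 6.43% of those tested, of which 132 (3.02%) were higher and 149 (3.41%) were lower at CT 0/12. The count expected from 4370 tests with no difference is 218.5. In 146 probe sets (3.34%) the sets of pools did not overlap, with 62 (1.42%) higher and 84 (1.92%) lower at CT 0/12. Differences were small, with the 5th and 95th percentiles at -0.34 and 0.35, a median SE of 0.16, and only 5 probe sets beyond 1 in either direction.

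The gene with the smallest p was Cavin3, which encodes a coat protein of caveolae, the small pits of the plasma membrane, and whose protein has been reported to bind the clock protein PER2. Its probe set D85435_g_at read 169, 145, 228 and 171 in the CT 0/12 pools, in order of time, and 344, 324, 393 and 335 in the CT 6/18 pools. All CT 6/18 pools lay above all CT 0/12 pools, so that the level alternated between low and high from each pool to the next on both days. The difference was -0.98 ± 0.16 (SE, n = 4 pools in each set), a level 1.98-fold higher at CT 6/18, with an unadjusted limma p of 4.99e-05, an adjusted p of 0.218 and an exact permutation p of 0.0286. The direction was the same in both readings of the pools, though the 12 h pool read 369 in one and 56.7 in the other. In the first run the CT 0/12 pools read 164, 369, 236 and 208 and the CT 6/18 pools 423, 487, 374 and 463, a difference of -0.90 with no overlap. In the technical repeat they read 175, 56.7, 221 and 141 against 280, 215, 412 and 242, a difference of -1.07 in which the 24 h pool exceeded the 18 h pool. The other Cavin3 probe set was dim, with a mean intensity of 29.7, and was not tested. It too was lower in every CT 0/12 pool, from 20.6 to 26.0, than in any CT 6/18 pool, from 31.2 to 47.3, and the difference was -0.69. The Cavin3 difference ranged from -1.14 to -0.83 over the alternative settings. It passed the threshold in the fit without arrays a (-1.14, adjusted p = 0.0276), and not in any other. Cavin3 read 368 and 310 on arrays a of 24 h and 36 h and 152 and 139 on arrays b, so that fit kept the lower array of each pair.

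**Figure D1:**
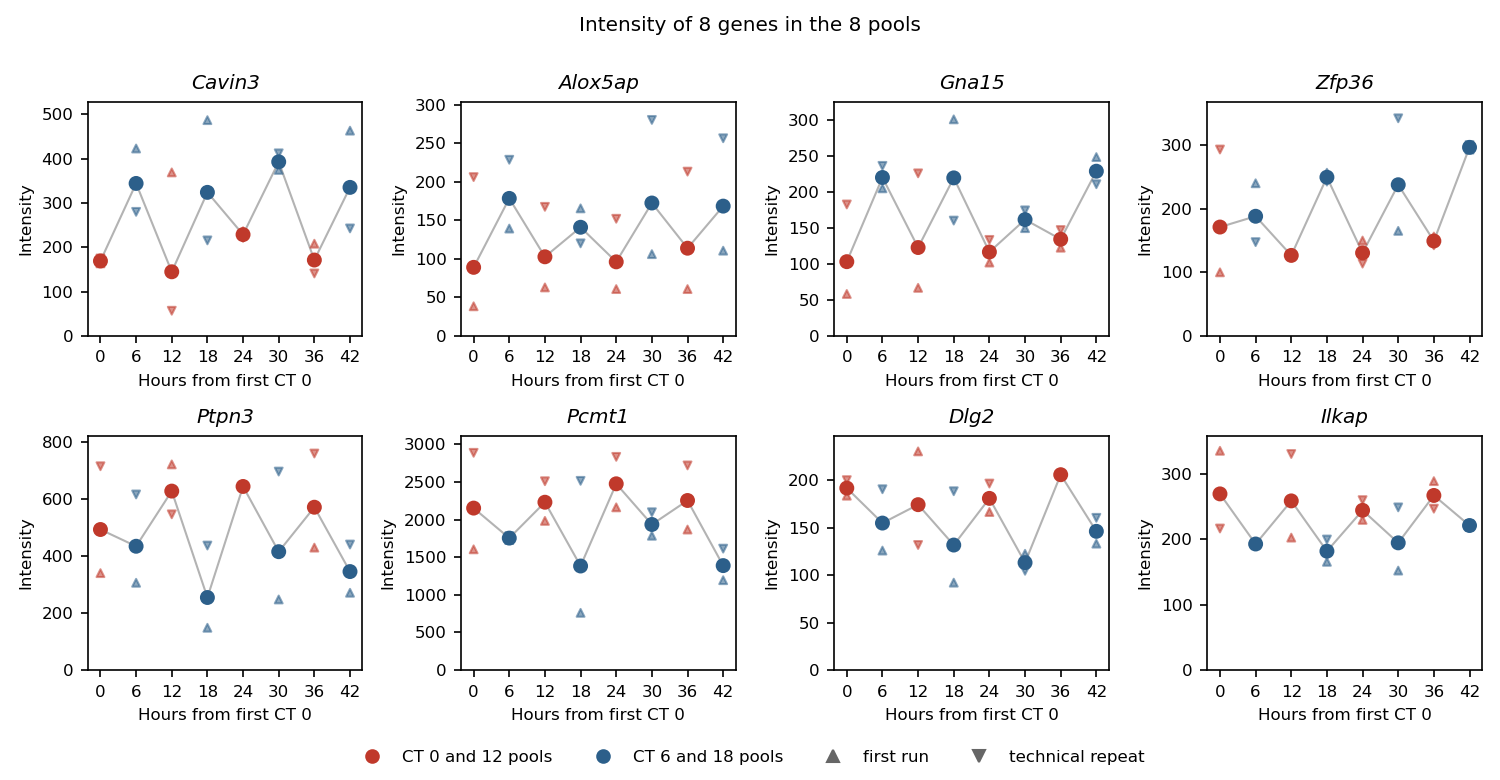
Intensity (linear axis from 0) against hours from the first CT 0 for 4 genes that were lower and 4 that were higher in the CT 0/12 pools; large points are pools, small triangles the 2 runs, and a run's triangle can lie hidden behind the pool's point. The pool values of each gene separate into a high and a low set, as Cavin3 does with 145 to 228 against 324 to 393. The triangles of Alox5ap and Gna15 lie far apart between runs, and so do those of Cavin3 at 12 h (369 and 56.7).

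Of the 12 genes with the smallest p that were lower at CT 0/12, 10 had sets of pools that did not overlap, against 1.92% of all tested probe sets; they were chosen by this same difference, so nothing is read from that count. Alox5ap, which encodes the protein that presents arachidonic acid to 5-lipoxygenase in leukotriene synthesis, read 89.0, 103, 96.1 and 114 at CT 0/12 and 178, 141, 172 and 168 at CT 6/18. The low and the high pools alternated without overlap (-0.72 ± 0.13; limma, adjusted p = 0.359), but the difference was -1.23 in the first run and -0.20 in the repeat, and a brighter Alox5ap probe set had a difference of 0.04. Gna15, a G protein subunit of the Gq class, read 103, 123, 117 and 134 against 220, 219, 161 and 229 (-0.79 ± 0.15, limma, adjusted p = 0.359). It likewise rested on the first run, at -1.39 against -0.20.

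Xylt2, a xylosyltransferase that starts glycosaminoglycan chains on proteoglycans, had the opposite balance, with -0.19 in the first run and -1.47 in the repeat (both runs -0.83). Hmox2, the constitutive haem oxygenase, differed by -0.96 on a probe set with a mean intensity of 132, and by -0.05 on a brighter one at 612. Zfp36, the RNA-decay factor tristetraprolin, read 171, 127, 131 and 149 against 188, 250, 238 and 297, so that every CT 6/18 pool was above every CT 0/12 pool. Its difference of -0.74 ± 0.16 was shared by the first run (-0.82) and the repeat (-0.66), and limma's adjusted p was 0.586. The brighter Zfp36 probe set nonetheless had a difference of -0.04.

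Vtn, which encodes the adhesion protein vitronectin, read 161, 210, 235 and 152 at CT 0/12 and 296, 276, 323 and 333 at CT 6/18. These sets did not overlap either (-0.72 ± 0.16, limma, adjusted p = 0.586), and both runs had the same direction, at -0.87 and -0.56. The other genes lower at CT 0/12 were Egr1, Renbp, Cdk5, Sds and Atp5po, with differences from -0.98 for Renbp to -0.48 for Sds and adjusted p from 0.689 to 0.751. The other tested Renbp probe sets differed by -0.32 and 0.15. Sds, a serine-degrading enzyme, was the 1 gene of the 24 whose runs disagreed in direction, with 0.25 for the first run but -1.22 for the repeat. Cdk5, a kinase of postmitotic neurons, and Atp5po, a stalk subunit of ATP synthase, had the same direction in both runs; the brighter probe set of Atp5po, at a mean intensity of 10334, differed by -0.23.

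Egr1, the immediate early transcription factor that is induced by light in the SCN, was read by probe sets that disagreed. The dim U75398_s_at, with a mean intensity of 142, was lower at CT 0/12 by -0.85 ± 0.20. The bright AF023087_s_at, at 5059, was higher by 0.36 ± 0.23, and M18416_at, at 245, was higher by 0.52 ± 0.19. The Egr1 probe sets therefore give no common direction for the gene.

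Ptpn3, a protein tyrosine phosphatase, was the gene with the smallest p among those higher at CT 0/12. It read 494, 629, 645 and 572 at CT 0/12 and 435, 255, 416 and 346 at CT 6/18, sets that did not overlap. The difference was 0.71 ± 0.18 (SE, n = 4 pools in each set, limma, adjusted p = 0.751), with 1.12 in the first run and 0.30 in the repeat. Of the 12 genes higher at CT 0/12, 8 had sets that did not overlap, against 1.42% of all tested probe sets, and again the genes were chosen by this difference.

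Pcmt1, which encodes the methyltransferase that repairs damaged aspartyl residues in proteins, was the brightest of the 24 genes. It read 2152, 2230, 2475 and 2253 at CT 0/12 and 1754, 1383, 1934 and 1388 at CT 6/18, so the lowest CT 0/12 pool was above the highest CT 6/18 pool. Its difference of 0.51 ± 0.14 was nearly the same in the first run (0.55) and in the repeat (0.47). Limma's adjusted p was 0.751. Dlg2, a scaffold protein of the postsynaptic density, read 192, 174, 181 and 206 against 155, 132, 113 and 146 (0.47 ± 0.14). Its pools did not overlap, with 0.74 in the first run and 0.20 in the repeat.

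Ilkap, a phosphatase that acts on integrin-linked kinase, read 269, 259, 244 and 267 against 193, 182, 194 and 221 on its dim probe set (0.40 ± 0.12), while the bright probe set of the gene, at a mean of 2274, differed by -0.09. Rasgrf1, an activator of Ras in neurons, was higher by 0.56, and Pde3b, a cyclic nucleotide phosphodiesterase, by 0.46. Pttg1 (securin, which restrains the separation of sister chromatids) was higher by 0.98 and Asl (argininosuccinate lyase of the urea cycle) by 0.79, both with sets that overlapped. Sparc, a secreted matrix protein, was higher by 0.61 on its dimmest probe set, at a mean of 160, whereas the 3 brighter ones differed by 0.23, -0.37 and 0.19. The remaining 3 genes were Agxt (0.59), Fam210a (0.69) and 1810009J06Rikl (0.57). The other tested Agxt probe sets differed by -0.0203, the brightest, and -0.26.

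The 24 genes as a group had low signals, with mean intensities from 122 for Fam210a to 1906 for Pcmt1. Of the 24, 15 had 26 other probe sets between them. Only 12 of these 26 had the direction of the probe set that chose the gene, and 6 of the 14 bright enough to be tested. In 23 of the 24 genes the 12 h amplitude, which is the difference divided by 2, was larger than the amplitude of a 24 h cosine in the same pools, against 17.4% of all tested probe sets. In 22 of them all 4 neighbouring pairs of pools (0 with 6, 12 with 18, 24 with 30 and 36 with 42 h) had the same sign, against 14.9%. Both counts rest on the same pool means that chose the genes. Of the 24 genes, 11 had sets that did not overlap within the first run and 6 within the repeat, against 3.89% and 3.87% of all tested probe sets, and 0 did so in both. Each run is part of the mean that chose the genes, so nothing is read from these counts.

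Because both runs read the same pools, a difference between pools should appear in both readings. Over the 4370 probe sets the 12 h difference in the first run and in the repeat correlated at r = 0.0161 (Spearman's rho 0.0200), and 50.7% of the probe sets had the same sign. These points share their pools, and probe sets are not independent of each other. For comparison, the difference between CT 12 and CT 0, where a 24 h rhythm counts, correlated between runs at r = 0.190 with 59.0% of signs alike, and the difference between CT 6 and CT 18 at r = 0.102. The agreement was greater for bright probe sets. It was r = 0.10 (53.2% of signs alike) for the 2014 probe sets with a mean intensity over 500 and r = 0.190 (59.1%) for the 718 over 2000, limits that were chosen after results of these data were known. In the 718, the difference between CT 12 and CT 0 correlated between runs at r = 0.194 and that between CT 6 and CT 18 at 0.235.

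**Figure D2:**
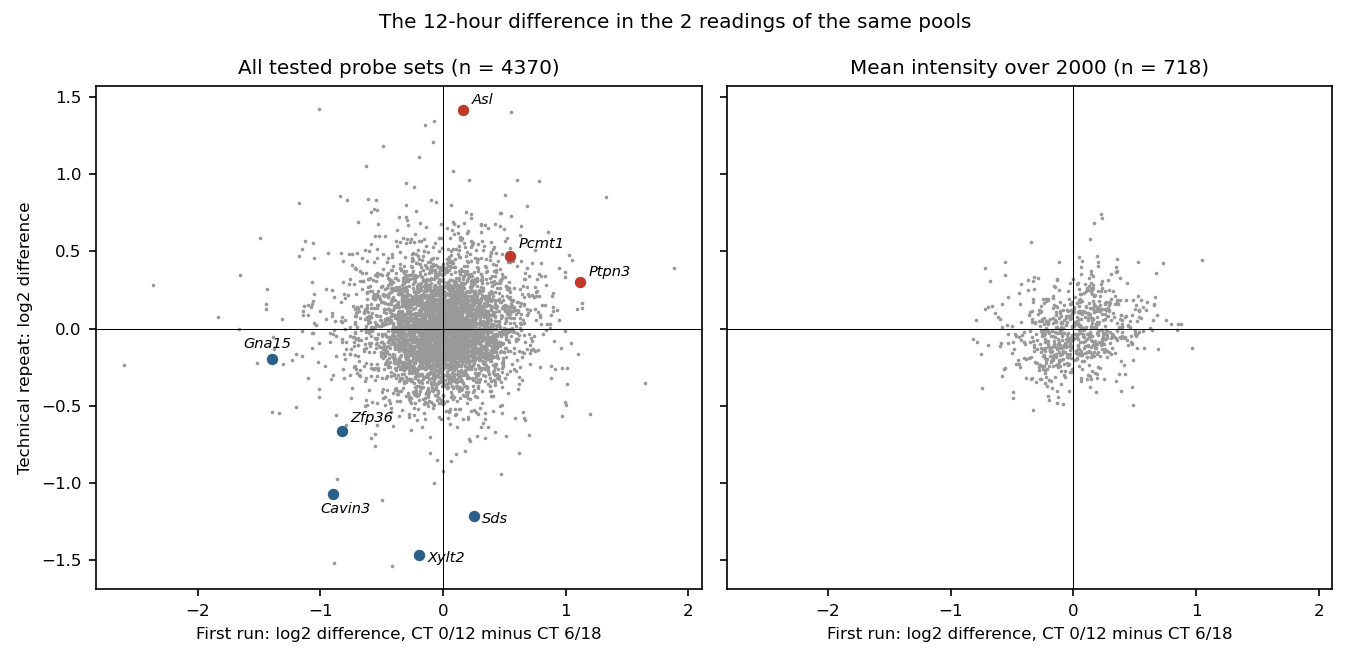
The CT 0/12 minus CT 6/18 difference (log2) of each probe set in the first run (horizontal axis) against the technical repeat (vertical axis). It is shown for all 4370 tested probe sets and for the 718 with a mean intensity over 2000. The named genes are a selection from the 12 of smallest p in each direction, red where higher and blue where lower at CT 0/12. They were not picked by p alone, so no general pattern is read from their positions. The full cloud has no slope (r = 0.0161), while Cavin3, Zfp36 and Pcmt1 lie near the diagonal and Xylt2, Gna15, Asl and Sds near an axis.

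When each run was fitted alone, 3993 probe sets passed the level filter in both. Of these, 274 had an unadjusted limma p under 0.05 in the first run and 240 in the repeat, and 7 did in both, 3 with the same sign. The 7 are 2.55% of the first run's and 2.92% of the repeat's, against the 6.01% and 6.86% of all 3993 that passed in the other run. Besides Cavin3 the 3 were Akap11 and Csad, named here after their values were seen. Akap11, an anchoring protein for protein kinase A, was higher at CT 0/12 by 0.79 and 0.95 in the runs. Csad, an enzyme of taurine synthesis, was lower, with differences of -0.79 and -0.63. The other 4, among them Ppp1r15a, Ptprr and Tln1, had opposite signs in the runs.

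The days are made of different animals. Over the 4370 probe sets the 12 h difference of day 1 (0 to 18 h) correlated with that of day 2 (24 to 42 h) at r = 0.0947, with 53.4% of signs alike. These differences share the runs. Taken across runs, the correlation was 0.157 for day 1 of the first run with day 2 of the repeat, and -0.150 for day 1 of the repeat with day 2 of the first run. Within a day, the step from CT 0 to CT 6 and that from CT 12 to CT 18 should have the same sign in a 12 h rhythm. A rhythm of 24 h gives them opposite signs and so lowers their correlation, whether or not a 12 h rhythm is present. These steps correlated at r = -0.0998 on day 1 and at 0.166 on day 2. Across days, the steps from 12 to 18 h and from 36 to 42 h correlated at 0.197 and those from 0 to 6 h and from 24 to 30 h at 0.0463, but these are the same circadian times and would also be alike in a rhythm of 24 h. The pairings that only a 12 h pattern makes alike gave r = -0.160 (0 to 6 h with 36 to 42 h) and 0.0770 (12 to 18 h with 24 to 30 h). A rhythm of 24 h makes these pairings opposite too, so no conclusion about a 12 h pattern is drawn from them. In a limma fit with a day term, 0 probe sets had a day difference of the 12 h contrast at an adjusted p of 0.05 (the smallest was 0.857), and 170 had an unadjusted p under 0.05.

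Of the 23 core clock genes listed, 12 were measured and 10 tested. Sets of pools that did not overlap were found for 0 of the 10, against 3.33% of all tested genes. An unadjusted p under 0.05 was found for 0 of the 10, against 6.43% of all probe sets and 6.06% of all genes. With 10 genes these counts cannot be told from the shares over all genes, so nothing is read from them. By sign, 4 were higher and 6 were lower at CT 0/12, where 48.9% of all tested probe sets were higher, with a median of -0.04 against -0.01 over all genes. Dbp, a transcription factor that is a direct output of the clock, read 479, 1243, 516 and 1175 in the successive CT 0/12 pools and 828, 841, 899 and 779 in the CT 6/18 pools. The CT 6/18 pools lay between the low CT 0 pools and the high CT 12 pools, which is the course of a rhythm of 24 h with an amplitude of 0.64, and the 12 h difference was -0.11 ± 0.29.

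Bmal1, the activator of the loop, had a 12 h difference of -0.23 ± 0.27. Its pools read 217, 104, 287 and 162 at CT 0/12 and 234, 210, 168 and 240 at CT 6/18, so the highest and the lowest pool were both in the CT 0/12 set. Per2, a repressor of the loop, read 276, 323, 283 and 271 against 236, 150, 230 and 317 (0.35 ± 0.20), and the 42 h pool was higher than 3 of the CT 0/12 pools. Bhlhe41 (DEC2), a repressor that binds the same E-box elements as BMAL1, had the smallest p of the list (0.36 ± 0.18, exact permutation p = 0.114). Its 18 h pool, at 2652, was far below the other 7, from 4160 to 5421.

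Bhlhe40, the close relative of Bhlhe41, had a difference of 0.27, and the nuclear receptors Nr1d1 and Nr1d2, which repress Bmal1, had 0.24 and -0.04. Tef and Hlf, factors of the same family as Dbp, differed by -0.05 and -0.09, and the casein kinase Csnk1d by -0.05. The runs had the same sign in 7 of the 10 tested clock genes. They had opposite signs for Hlf (0.51 and -0.70), Nr1d1 (0.71 and -0.23) and Csnk1d (-0.20 and 0.09). The other tested probe sets of Nr1d1 (-0.05), Dbp (0.18) and Csnk1d (0.05) had the opposite sign to those given here. Rorb and Timeless were too dim to be tested.

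**Figure D3:**
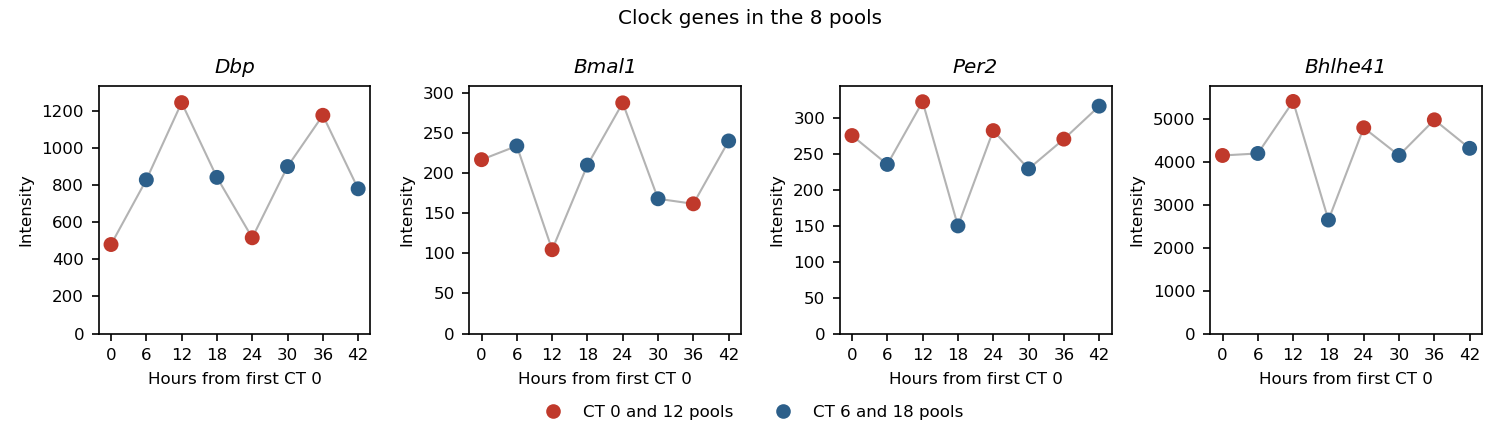
Intensity (linear axis from 0) of the clock genes Dbp, Bmal1, Per2 and Bhlhe41 in the 8 pools against hours from the first CT 0, with CT 0/12 pools in red and CT 6/18 pools in blue. In Dbp the blue points, 779 to 899, lie between the low and the high red ones, so the red and blue means are alike, and in Bhlhe41 the 18 h pool alone stands low.

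Peptides and their kin in the SCN showed no common direction. Of the 13 tested, 6 were higher and 7 lower, and the median was 0.00. An unadjusted p under 0.05 was found for 0 of the 13, against 6.06% of all tested genes. Tac1, the precursor of substance P, read 2142, 2260, 2170 and 2441 at CT 0/12 and 1888, 1860, 1854 and 1987 at CT 6/18. Its sets did not overlap (0.25 ± 0.12; limma, adjusted p = 0.778), and the runs gave 0.23 and 0.26. Avp, a peptide under clock control in the SCN, differed by -0.14 ± 0.18, Cartpt by -0.24 and the growth factor Tgfa by 0.18.

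Immediate early genes, which respond within minutes to neuronal activity, had 12 members tested, 8 higher and 4 lower at CT 0/12, with a median of 0.05. The 1 member with an unadjusted p under 0.05 (8.33%, against 6.06% of all tested genes) was Nr4a3, an orphan nuclear receptor. It read 316, 204, 171 and 185 against 156, 143, 168 and 83.5. Its sets did not overlap, though the 24 h and 30 h pools were nearly equal, and the difference was 0.68 ± 0.25 (limma, adjusted p = 0.751). Atf3, a stress-induced factor of the same list, had 0.25 ± 0.17.

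The gene groups reported with 12 h rhythms in other tissues were then examined. Chaperones of the endoplasmic reticulum and genes of the unfolded protein response had 17 members tested, 5 higher and 12 lower, with a median of -0.06. Of these, 1 had an unadjusted p under 0.05 (5.88%, against 6.06% of all tested genes). This was Pdia3, a disulphide isomerase, which read 889, 538, 780 and 797 against 532, 633, 570 and 565 (0.36 ± 0.16). Its 12 h pool fell among the CT 6/18 pools, and the runs gave 0.61 and 0.12. The other tested Pdia3 probe set, at a mean intensity of 375, differed by 0.0074, with 0.37 in the first run and -0.36 in the repeat. Hyou1, another chaperone, had 0.37 ± 0.22, and Ddit3 (CHOP), the factor of terminal stress, had -0.23 ± 0.19.

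Heat shock chaperones had 15 members tested, 7 higher and 8 lower, with a median of -0.01. Hsph1, a large chaperone of the cytosol, was the 1 with an unadjusted p under 0.05 (6.67%, against 6.06% of all tested genes). It read 5405, 6084, 6561 and 6495 against 5008, 3932, 4939 and 5708 (0.33 ± 0.14), so that the 42 h pool was above the 0 h pool. Hspa9, the mitochondrial chaperone, differed by 0.54 with a larger SE of 0.32, and its pools ranged widely, from 471 at 18 h to 1777 at 0 h. Without the 18 h pool the Hspa9 difference was 0.22. Hspe1, the co-chaperonin of mitochondrial Hspd1, differed by 0.19.

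Of the 25 subunits of the respiratory chain and ATP synthase, 9 were higher and 16 were lower at CT 0/12, with a median of -0.09, and 2 had an unadjusted p under 0.05 (8.00%, against 6.06% of all tested genes). Ndufb9, a subunit of complex I, read 3556, 3568, 4576 and 3865 against 4096, 5599, 5983 and 6026. It overlapped in the 24 h and 6 h pools alone (-0.47 ± 0.16, limma, adjusted p = 0.751), and the runs gave -0.49 and -0.45. Cyc1, cytochrome c1 of complex III, had -0.36 ± 0.16.

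Ribosomal protein genes and proteasome subunits had the lowest medians among the groups of over 10 genes, and both medians were below 0 in each run. So were those of the respiratory chain (-0.098 and -0.102) and of the endoplasmic reticulum chaperones (-0.11 and -0.02). The runs had the same sign in 19 of 36 ribosomal and 17 of 24 proteasome genes, against 1440 of all 2820. On the brightest probe sets 0 ribosomal genes had sets that did not overlap, against 3.33% of all tested genes. Of 36 ribosomal protein genes, 28 were lower and 8 higher at CT 0/12, where 51.6% of all tested genes were lower. The median was -0.13, with -0.19 in the first run and -0.09 in the repeat, and it stayed below 0 when arrays were scaled to the same median (-0.13) or quantile normalised (-0.18). Unadjusted p under 0.05 was found for 3 lower members and 1 higher one (11.1%, against 6.06% of all tested genes). Rpl35 read 5018, 6029, 5895 and 6810 against 6528, 8924, 7773 and 7115 (-0.35 ± 0.15), and a second Rpl35 probe set, whose pools did not overlap, differed by -0.56. Rpl14 was lower by -0.49 ± 0.19. The third was Rpl19 (-0.45), outside the rule for naming and named after its value was seen. Rpl30 ran the other way by 1.09 ± 0.44, on a dim probe set that read 40.5 in the 42 h pool. Ribosomal protein genes have many near-identical processed copies, so their probe sets may read more than 1 of them.

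When each gene was centred on its mean, the median ribosomal deviation ran from -0.15 to 0.11 over the CT 0/12 pools and from -0.05 to 0.26 over the CT 6/18 pools. The sets overlapped, since the 12 h pool was among the high ones. Without the 18 h pool, the highest, the median of the group was -0.07.

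Of 24 proteasome subunits, 19 were lower and 5 higher, with a median of -0.09 (-0.17 in the first run and -0.06 in the repeat) that was -0.10 after quantile normalisation. Unadjusted p under 0.05 was found for 2 members, both lower (8.33%, against 6.06% of all tested genes). Psmc1, an ATPase of the regulatory particle, read 2438, 1909, 2021 and 1717 against 2264, 2797, 2747 and 2938 (-0.42 ± 0.15), so that the 0 h pool was above the 6 h pool. Psmb3, a subunit of the core particle, differed by -0.41 ± 0.16. Psma5, another core subunit, read 2397, 2220, 2532 and 2480 against 2749, 2766, 2975 and 2958, sets that did not overlap (-0.25 ± 0.12), while a dimmer Psma5 probe set differed by 0.10.

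Genes of GABA signalling, the main transmitter system of SCN neurons, had the highest median of the larger groups, 0.12 (0.13 and 0.12 in the runs), with 9 of 13 members higher; over all tested probe sets of these genes it was 0.06. None of the 13 had an unadjusted limma p under 0.05, against 6.06% of all tested genes, and 0 passed the adjusted threshold. Gad1, which makes GABA, read 11262, 10654, 10981 and 14705 at CT 0/12 and 10972, 7952, 9916 and 9034 at CT 6/18, with only the 6 h pool above a CT 0/12 pool (0.33 ± 0.15). The receptor subunit Gabra2 had sets that did not overlap (0.33 ± 0.16), although its 24 h and 30 h pools were nearly equal, and Gabbr1 of the GABA-B receptor had 0.31 ± 0.16. The other tested Gabbr1 probe sets ran the other way, at -0.30 and -0.14.

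Potassium and calcium channel genes split evenly, with 16 of 31 higher, a median of 0.05 and 3 with an unadjusted p under 0.05 (9.68%, against 6.06% of all tested genes). Kcna1, a potassium channel that limits repetitive firing, read 337, 312, 285 and 216 against 357, 479, 353 and 422 (-0.49 ± 0.17), and its sets did not overlap. Kcnq3, a subunit of the M-current channel, was also lower without overlap (-0.31 ± 0.13), and Cacng1, a calcium channel subunit, was higher by 0.55 ± 0.18.

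Synaptic vesicle genes had 9 of 16 higher, and 1 had an unadjusted p under 0.05 (6.25%, against 6.06% of all tested genes). This was Sv2a, a vesicle glycoprotein (-0.42 ± 0.17). Napa and Vamp1, of the vesicle fusion machinery, differed by -0.25 and -0.27. Glutamate receptor genes had 6 of 11 higher, led by Grin2d (0.36 ± 0.18) and Grin2a (-0.41 ± 0.22), both NMDA receptor subunits. Glycolysis genes had 6 of 15 higher, with Ldhb at -0.29 ± 0.15 and the glucose transporter Slc2a1 at -0.14, and genes of cholesterol and fatty acid synthesis 7 of 12. In the last group Scd2, a fatty acid desaturase, read 12154, 12809, 12037 and 12729 against 11624, 8486, 11815 and 10182, sets that did not overlap (0.25 ± 0.14), while 1 of the other 4 tested Scd2 probe sets had the opposite sign (-0.08).

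**Figure D4:**
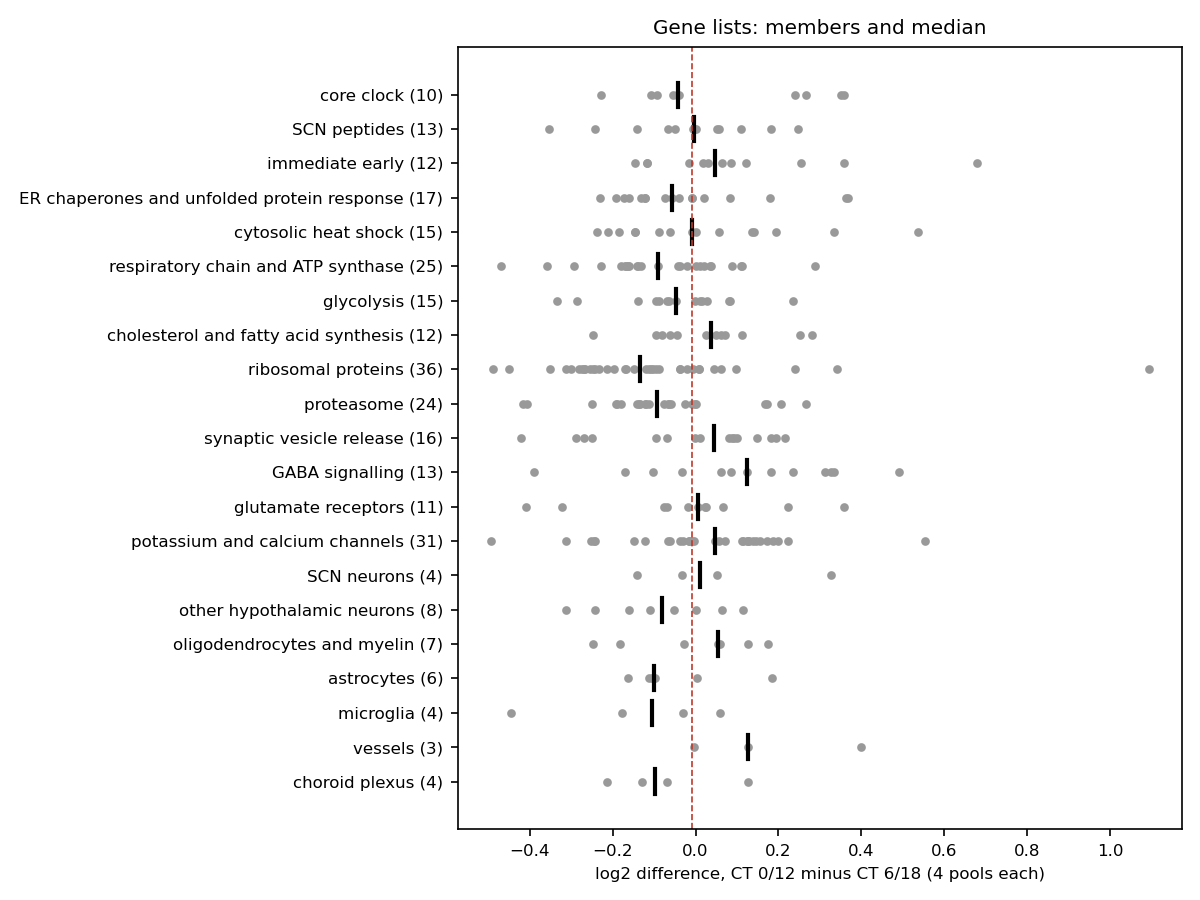
Differences (CT 0/12 minus CT 6/18, log2) of the tested members of each gene list, with the number tested in parentheses; grey points are genes, black bars list medians and the dashed line the median of all 2820 tested genes (-0.01). The list medians lie close to the line, the ribosomal one at -0.13 and the GABA one at 0.12 being farthest from it among the lists of over 10 genes.

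Markers of cell types were compared between the sets in the same way. Of the 7 vessel markers listed 3 were tested. Their summed intensity was 751 to 880 at CT 0/12 and 591 to 766 at CT 6/18. With each marker centred on its mean, the median vessel deviation was 0.12 to 0.29 over the CT 0/12 pools and -0.30 to 0.00849 over the CT 6/18 pools. These did not overlap, although the sums did, and no other list was apart in this way. The median is of 3 genes in 1 of many lists, so nothing is read from this separation. Acta2, the actin of smooth muscle, differed by 0.40 ± 0.14 (exact permutation p = 0.0571). It was the 1 vessel marker of 3 with an unadjusted limma p under 0.05 (33.3%, against 6.06% of all tested genes). The median vessel difference was 0.48 in the first run and -0.21 in the repeat. For microglia, 4 of 6 markers were tested, with sums of 727 to 813 and 734 to 942, and C1qb, a complement subunit, had -0.45 ± 0.18. C1qb was the 1 microglia marker of 4 with an unadjusted limma p under 0.05 (25%, against 6.06% of all tested genes). Cavin3, lower at CT 0/12, is abundant in cells of vessel walls. In the first run Acta2 (0.70), Flt1 (0.48) and Kdr (0.21) were opposite in sign to it, and in the repeat Acta2 (0.10) was opposite while Flt1 (-0.23) and Kdr (-0.21) had its sign. The part of vessel cells in the Cavin3 difference was not tested. In tissue pools, fewer cells of a type and less RNA per cell cannot be told apart. Each marker was read on the brightest probe set of its gene. The other lists were oligodendrocytes (4 of 7 higher), astrocytes (2 of 6), choroid plexus (1 of 4), SCN neurons (2 of 4) and other hypothalamic neurons (3 of 8). On those probe sets they included 0 with an unadjusted limma p under 0.05, against 6.06% of all tested genes, and none passed the adjusted threshold. Among the members with the smallest p in the marker lists, Flt1 (vessels) differed by 0.13 and Kdr (vessels) by -0.00315. Aif1 and Cd74 (microglia) differed by -0.18 and 0.06, and Glul, Slc1a3 and S100b (astrocytes) by 0.18, -0.10 and -0.10. A dimmer Glul probe set, at a mean of 6228, differed by 0.48 (limma, unadjusted p = 0.0146, adjusted p = 0.751), and another by -0.00192. Sst (SCN neurons) differed by 0.05, and Kl and Igf2 (choroid plexus) by 0.13 and -0.07.

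The share of probe sets with an unadjusted p under 0.05 depended on the arrays used. It was 6.43% with all arrays, 3.39% without the 3 first-run arrays with the highest hybridisation controls (12 h, 18 h and 36 h b), and from 4.07% to 8.88% when 1 pool was left out, the lowest being without the 24 h pool and the highest without the 6 h pool. The first run alone gave 308 probe sets and the repeat alone 276. Of the repeat's 276, 62 were among the 281 of both runs together.

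**Figure D5:**
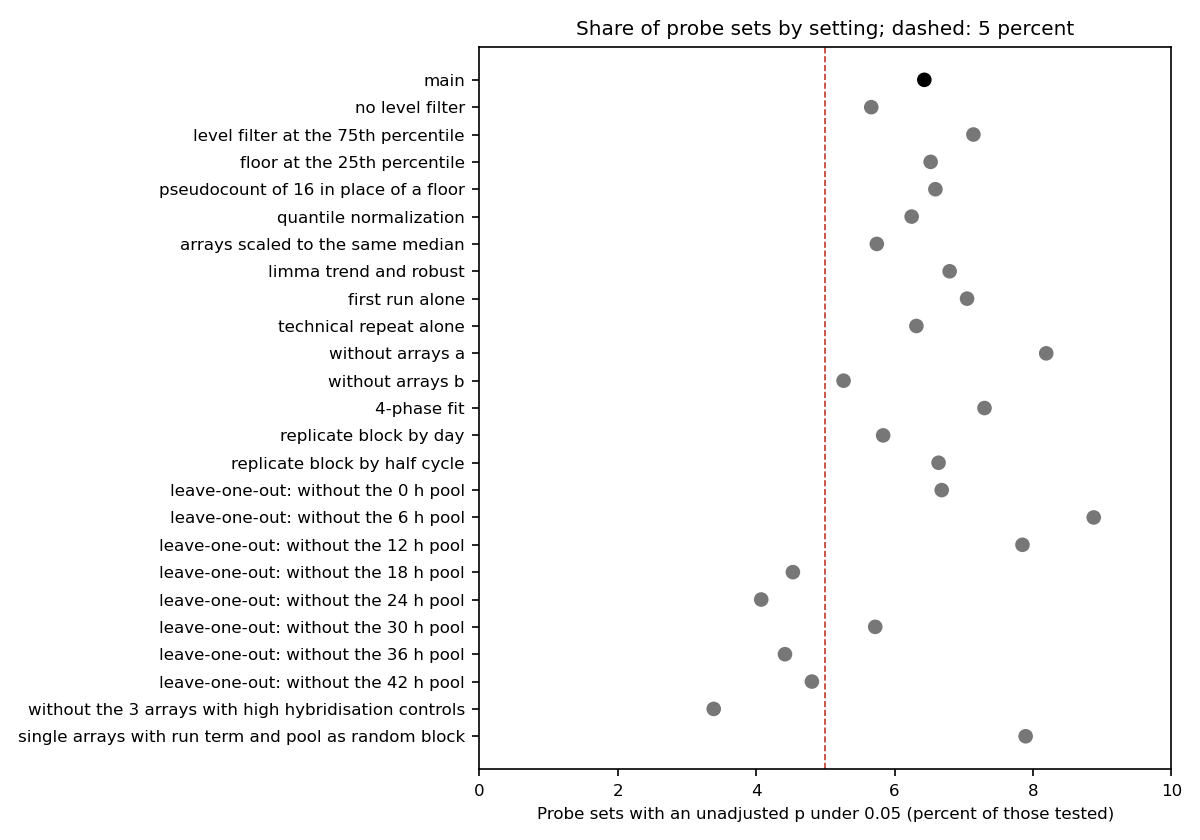
Percent of tested probe sets with an unadjusted p under 0.05 in the 12 h comparison (linear axis from 0) under each way of processing the arrays, with the value for all arrays and both runs in black and a dashed line at 5%. The points run from 3.39% without the 3 arrays of highest hybridisation controls to 8.88% without the 6 h pool.

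Arrays a and b existed only at 24 h and 36 h, so only the CT 0/12 set held them. After subtraction of the first-run mean, the a and b arrays of 24 h correlated at -0.356 and those of 36 h at -0.268, whereas 24 h a correlated with 36 h a at 0.310 and 24 h b with 36 h b at 0.547 (over 4370 probe sets). The arrays thus resembled those of the same letter more than those of the same time point. The median SD between the runs of 1 pool was 0.30 on the log2 scale, and that between pools of a set, after averaging the runs, was 0.23. Deviations of the same pool in the first run and in the repeat correlated at -0.0187 to 0.170, and in 3 of the 8 pools the same pool was the best match.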

How the data were processed

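The authors deposited 1 intensity, on a linear scale, for each probe set on each of 18 rat U34A arrays. How the probes were summarised, and to what target arrays were scaled, is not given in the sources used here; 2% trimmed means of 500.7 to 500.8 show that they had been scaled. The number of pools limits the precision. The labels do not say that arrays a and b read 1 pool, which was assumed. Intensities below the 10th percentile (12.1) were set to it, transformed to log2 and averaged as described. Probe sets with a geometric mean over 121 were fitted with limma 3.58.1 (lmFit, eBayes) in R 4.3.3, with 6 residual degrees of freedom. The fit was run on simulated pool values with independent noise and no differences between runs or arrays. That run checked the code, not how the fit behaves on arrays like these. Symbols came from the platform annotation (7006 probe sets with 1 symbol, 308 with several, left unnamed); RefSeq changed 0 of them. The text names the 12 genes of smallest p in each direction, the clock list and up to 3 members of each other list by smallest p on the brightest probe set. The comparison, the lists and the members were chosen with earlier results of these data known. Alternatives covered the floor, filter, scaling, runs, arrays, design and single pools. The labels give no replicate numbers that pair pools between the sets, and the immortalised SCN line was not analysed here.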

Additional observations from a re-analysis of the deposited data

Results flagged for a closer look

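Among the 92 tested probe sets that the naming rule selects (184 sets of 4 pools), 8 sets, or 4.35%, had 1 pool far from the other 3, with a gap above Dixon's 95% critical value. Chance gives about 1 in 20. The pools were Fam210a at 12 h (139, next 160), Gna15 at 30 h (161, next 219), Bhlhe41 at 18 h (2652, next 4161) and C1qb at 6 h (285, next 396) on the low side, and Ldhb at 12 h (4691, next 4177), Slc2a1 at 18 h (3063, next 2394), Rpl14 at 0 h (551, next 364) and S100b at 30 h (12039, next 9083) on the high side.

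In 5 genes both neighbouring differences had one sign on day 1 and the other on day 2. Day 2 minus day 1 was 0.51 for Tef, 0.49 for Hlf, 0.34 for Csnk1d, 0.62 for Kl and 0.46 for Igf2. They were picked by sign alone and not by a test. In limma's fit with a day term the adjusted p was 0.998 for each.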

How the results depend on the processing

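No setting other than the fit without arrays a gave a probe set with an adjusted p under 0.05. That fit called 1, Cavin3 (-1.14). The count of probe sets with an unadjusted p under 0.05 (281) was 495 with no level filter (229 higher, 266 lower), 156 with the filter at the 75th percentile (80 and 76), 148 without the 3 arrays of highest hybridisation controls, a setting added later (65 and 83), and 178 to 388 with each pool left out (79 to 193 higher and 99 to 195 lower). No replicate numbers pair the pools. A replicate block by day gave 255 such probe sets and one by neighbouring time points 290, and neither called any after adjustment. Of 2136 refitted differences of the named genes, 2079 kept their direction and side of the threshold and 56 reversed. In the 24 genes of smallest p, 541 of 543 kept both. These 24 were chosen by the same difference in the same pools, so nothing is read from that count. With all arrays no adjusted p was under 0.05, so keeping the side of the threshold meant staying above it. With the first run alone Sds (0.25), Hlf (0.51) and Tgfa (-0.0104) reversed. With the repeat alone it was Nr1d1 (-0.23), Csnk1d (0.0865), Hspe1 (-0.13), Ldhb (0.010), Vamp1 (0.00942), Sst (-0.0351), S100b (0.0948), Cd74 (-0.25), Flt1 (-0.23) and Kl (-0.18). Without arrays a, Tef (0.0447), Hlf (0.00933), Slc2a1 (0.0571) and Kdr (0.0522) reversed, and without arrays b, Nr1d2 (0.0104), Sst (-0.0755) and Cd74 (-0.0802). Without the 3 arrays, Nr1d2 (0.0411), Dbp (0.0272), Csnk1d (0.0320), Ddit3 (0.0114), Sst (-0.0739), S100b (0.0326), Aif1 (0.0781), Cd74 (-0.18), Flt1 (-0.0491) and Kdr (0.0129) reversed. Kdr also did so after quantile normalisation (0.000620) and, with Igf2 (0.00394), over single arrays (0.0919). With pools left out, differences crossed 0 for Avp (-0.28 to 0.000681), Bmal1 (-0.45 to 0.0342), Cd74 (-0.00934 to 0.16), Csnk1d (-0.17 to 0.00764), Dbp (-0.34 to 0.12), Hlf (-0.28 to 0.00924), Igf2 (-0.19 to 0.0225), Kdr (-0.16 to 0.25), Kl (-0.0731 to 0.26), Nr1d1 (-0.0256 to 0.43), Nr1d2 (-0.17 to 0.0321), S100b (-0.14 to 0.0123), Sst (-0.0946 to 0.16) and Tef (-0.11 to 0.0423). List medians that moved beyond their spread over pools were, in the first run, immediate early genes (0.14), heat shock (0.13), proteasome (-0.17) and vessels (0.48), and in the repeat synaptic vesicle release (-0.11), channels (-0.0565), astrocytes (0.0236) and vessels (-0.21). Without the 3 arrays they were SCN peptides (-0.0538), synaptic vesicle release (-0.0612), vessels (0.0129) and choroid plexus (0.00263), and over all probe sets GABA signalling (0.0623). With pools left out the medians ran from 0.0841 to 0.20 for GABA signalling, -0.0882 to 0.0327 for SCN peptides, -0.13 to 0.0325 for choroid plexus, -0.0104 to 0.0571 for synaptic vesicle release and 0.0163 to 0.30 for vessels. The causes of these moves were not tested. Agreement between the runs was r = 0.0161 over all tested probe sets and 0.190 over those with a mean over 2000.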
